A study of Drosophila melanogaster with 39 samples.

Results

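The genes of catecholamine pigment synthesis and the cuticle gene Cpr66Cb were followed through RNA sequencing of Drosophila melanogaster testes. The 7 members, ple, Ddc, Pu, e, b, y and Cpr66Cb, were chosen by name out of 13659 genes per table, and all 7 were found in both tables. The values of ple and Cpr66Cb in bulk mutant testes against control testes selected these 2 genes, so those differences are given as a description with no test. The other 5 stand for the rest of the pathway around ple. Of these, Ddc, Pu, e and b had enough signal to be tested in bulk, and Ddc, e and b in sorted cells. y was tested only with the filter on low values dropped. The question was whether these 5 follow ple.

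Whole testes of 1 to 3 day old males, kept on standard medium at 25 °C, gave 21 polyA RNA libraries in 7 groups of 3. There were 5 groups of transheterozygous mutants (2 different mutant alleles of the same gene): Cdc73L (TH1), Ctr9L (TH2), Leo1L (TH1), Leo1L from the inverted cross (TH1) and Paf1L (TH2). The control stocks were w1118 iso and w1118. Both are named for the w1118 allele of the eye colour gene w, and the sources used here do not give the w and y alleles of the mutants or the stock from which each was crossed. Each mutated gene is a testis-specific relative of a PAF1 complex subunit; that complex travels with elongating RNA polymerase II. The second experiment used spermatocytes, the male germ cells of the growth phase before meiosis, sorted by fluorescence to a purity of at least 85% in 3 independent experiments per group. Every sorted group, the control included, carried Cdc73L tagged with GFP at its own locus, combined with homozygous Leo1L FS1, with homozygous Paf1L FS1, or with a w1118 control genotype. Each of the 9 sorted columns joins 2 libraries, 1 depleted of ribosomal RNA and 1 not.

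In insects, tyrosine hydroxylase (ple) turns tyrosine into L-DOPA with the help of the cofactor tetrahydrobiopterin, whose synthesis begins with GTP cyclohydrolase I (Pu). Dopa decarboxylase (Ddc) makes dopamine from L-DOPA. Dopamine then serves as a transmitter, or is oxidised to black melanin with the help of the secreted yellow protein (y), or is joined to beta-alanine by the product of ebony (e) and used for tan pigment and for hardening cuticle. The beta-alanine comes in part from aspartate 1-decarboxylase, the product of black (b). Cpr66Cb encodes a cuticle protein with a chitin-binding domain of the Rebers-Riddiford type. These pathways are best known from epidermis, neurons and wound sites. The pigment cells that surround the fly testis draw on another branch of pigment chemistry.

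The deposited values are signals per gene, normalized by the authors (GeTMM), on a scale not shown to be per length, so levels are compared between groups and never between genes. Approximate depth was 8.68 to 12.8 M reads (M, 1e+06) per bulk library and 7.46 to 20.9 M per sorted column. A count of 3 reads was worth 0.224 to 0.377 signal units in bulk and 0.145 to 0.383 in sorted columns, which covers counting error only. The labels were checked on the mutated genes. CG10887, the gene of Leo1L, lay between 15.5 and 18.2 in both bulk Leo1L groups against 53.7 to 70.0 in controls. CG9899 (Ctr9L) lay between 9.91 and 10.7 in Ctr9L mutants against 107 to 127, and CG12674 (Paf1L) between 2.84 and 6.67 in Paf1L mutants against 47.6 to 59.7. Cdc73L was not analysed here. The labels do not say whether the bulk replicates came from separate cultures, so p-values for them measure only the spread between these samples.

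In bulk testes ple was lower in all 15 mutant libraries than in every control library, but the rest of the pathway did not follow as a block. Pu, e and b passed the test in none of the mutants against both stocks together, though Pu against w1118 alone and e against w1118 iso alone were called lower in both Leo1L groups. Ddc split the mutants, higher in Cdc73L and Ctr9L and lower in Leo1L and Paf1L, but these calls depended on the control stock. Against w1118 iso alone the higher calls were lost, and against w1118 alone the lower ones. The transcript of y was near the detection limit in controls, Cdc73L and the inverted cross, and lay above every control in Ctr9L, Leo1L and Paf1L. It was tested only without the filter on low values. Cpr66Cb fell more deeply than ple, though in Ctr9L the log2 differences were close, at -2.24 and -2.20. Of the 6 control libraries, 2 held far more ple, Pu, e and b than the other 4, and the size of every difference in these 4 genes depended on them.

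ple (FBgn0005626, chromosome 3L, 6713356 to 6719525 of dm6, minus strand) had signals of 31.7, 35.8 and 28.4 in Cdc73L testes and 20.6, 25.2 and 16.8 in Ctr9L testes. Leo1L testes gave 28.3, 24.6 and 21.1, the inverted cross 23.4, 24.0 and 19.0, and Paf1L testes 40.5, 31.0 and 28.6. The 6 control libraries gave 236, 55.7 and 74.5 in w1118 iso and 55.5, 60.2 and 273 in w1118. The highest mutant value, 40.5, lay below the lowest control value, 55.5, so the groups did not overlap. The share of all tested genes that separate in this way is not given here, for ple or for Cpr66Cb below. The log2 differences from controls, on the log2(signal + 1) scale used for all fold changes here, were -1.60 in Cdc73L, -2.20 in Ctr9L, -1.96 in Leo1L, -2.11 in the inverted cross and -1.55 in Paf1L, each with a standard error of 0.41. Replicate 1 of w1118 iso and replicate 3 of w1118 lay more than 3-fold above the other 4 controls in ple. Without these 2 libraries, an alternative chosen after seeing the data, the differences shrank to -0.92, -1.52, -1.28, -1.43 and -0.87 in the same order of mutants, and their direction held. In bulk tissue, fewer cells that express a gene and less RNA per cell cannot be told apart.

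**Figure D1:**
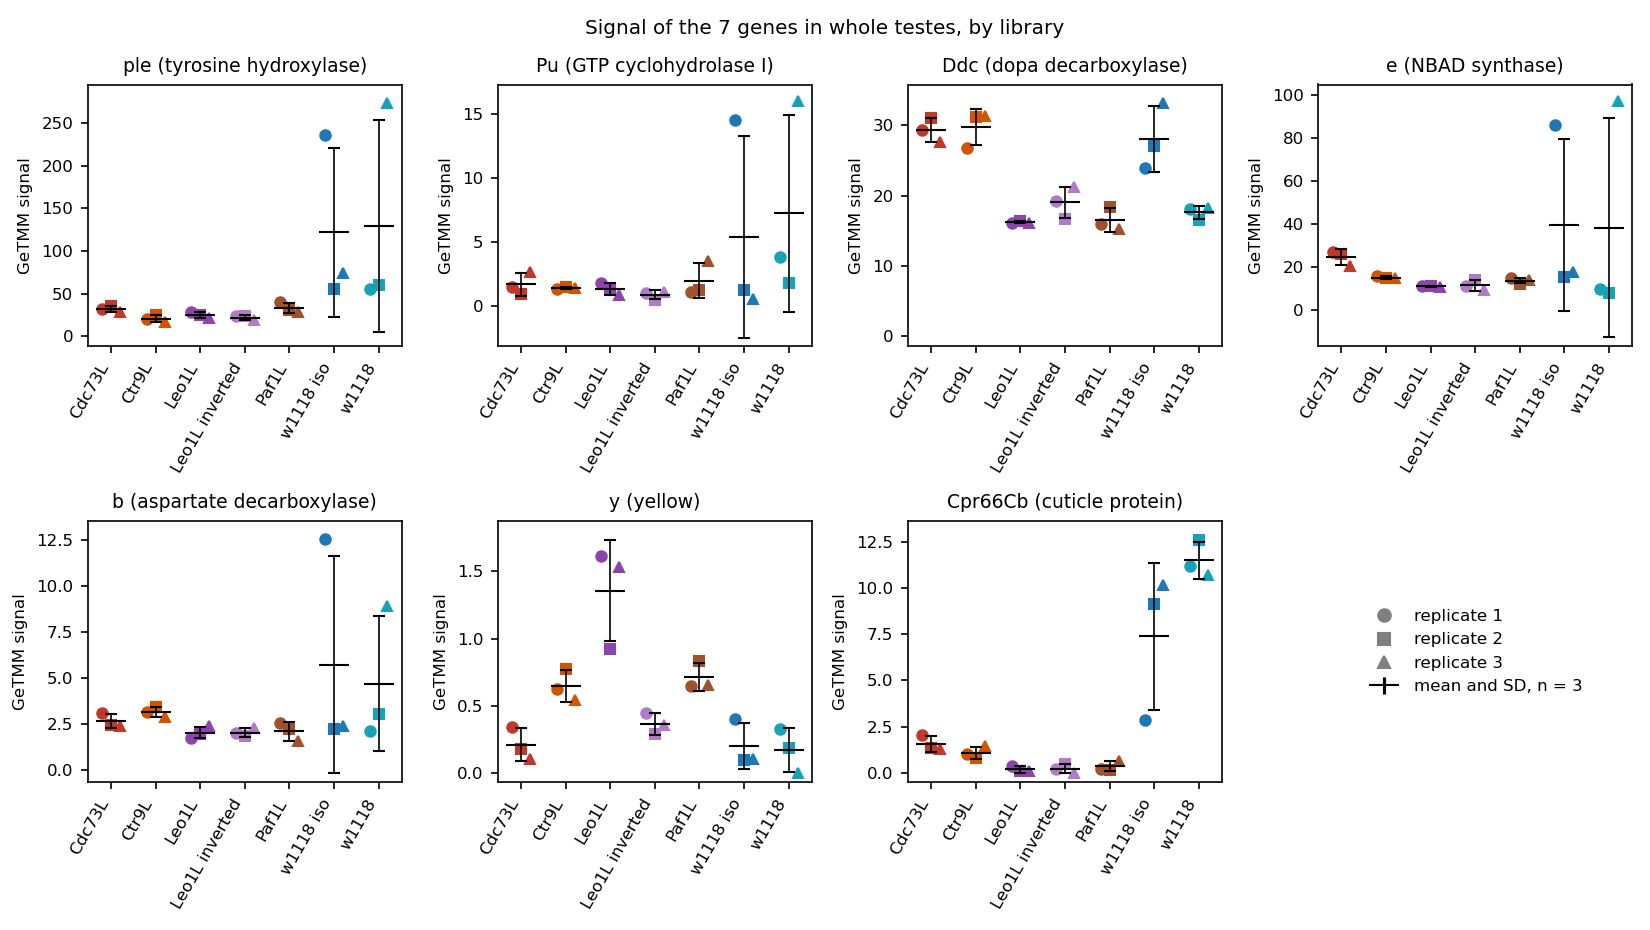
Normalized signal of the 7 members in each of the 21 bulk testis libraries, 1 panel per gene on a linear axis, with mutant groups left of the control stocks; points are libraries, and black bars are the mean and SD (n = 3). The ple and Cpr66Cb points of all mutants lie below every control point, while 2 control libraries stand above the other 4 in ple, Pu, e and b.

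Pu (FBgn0003162, chromosome 2R, 21175315 to 21182608, plus strand), which makes the first intermediate of the cofactor of tyrosine hydroxylase, was scarce in all groups but those same 2 control libraries. Its signals were 1.51, 0.911 and 2.64 in Cdc73L, 1.35, 1.49 and 1.41 in Ctr9L and 1.78, 1.30 and 0.861 in Leo1L. The inverted cross gave 1.04, 0.455 and 1.08 and Paf1L 1.09, 1.26 and 3.55. Controls gave 14.5, 1.21 and 0.514 in w1118 iso and 3.85, 1.82 and 16.0 in w1118, a range that overlaps every mutant group. The log2 differences were -0.88 in Cdc73L, -0.99 in Ctr9L, -1.07 in Leo1L, -1.39 in the inverted cross and -0.78 in Paf1L (standard error 0.58), with limma's Benjamini-Hochberg adjusted p between 0.0749 and 0.338. Without the 2 control libraries these values moved to between -0.50 and 0.10. Against w1118 alone Pu differed by -1.43 in Leo1L and -1.75 in the inverted cross and was called in both (limma, adjusted p of 0.0347 and 0.0112). The span of Pu overlaps that of CG4286. The strand setting of the counting and the handling of reads from the shared stretch are not given in the sources used here.

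The other genes of the cofactor behaved apart from Pu. Pcd encodes pterin-4a-carbinolamine dehydratase, which helps to recycle the cofactor after each hydroxylation, and it fell in all 5 mutants. Its signal averaged 26.3 ± 3.05 in Cdc73L, 23.8 ± 1.44 in Ctr9L, 20.0 ± 1.06 in Leo1L, 22.6 ± 0.58 in the inverted cross and 26.6 ± 2.30 in Paf1L, against 33.0 ± 5.08 in controls (SD, n = 3 per mutant, n = 6 for controls). The log2 changes were -0.31, -0.45, -0.68, -0.51 and -0.29, with limma's Benjamini-Hochberg adjusted p of 0.0386, 0.00497, 6.73e-05, 0.00106 and 0.0435. The Cdc73L call was lost in 7 of 35 alternatives and the Paf1L call in 21 of 35. pr, Sptr and Dhpr, the enzymes of the later steps and of reduction of the spent cofactor, did not pass the test in any bulk mutant. The list therefore had 1 of 4 tested genes called lower and 0 higher in each mutant. Over all 10925 genes tested, 12.6% were called lower in Cdc73L, 10.8% in Ctr9L, 15.1% in Leo1L, 15.9% in the inverted cross and 15.0% in Paf1L.

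Ddc (FBgn0000422, chromosome 2L, 19116483 to 19120306, minus strand), which converts L-DOPA to dopamine directly downstream of tyrosine hydroxylase, moved in both directions. Its signals were 29.4, 31.0 and 27.6 in Cdc73L and 26.8, 31.1 and 31.4 in Ctr9L. They were 16.1, 16.4 and 16.1 in Leo1L, 19.3, 16.7 and 21.2 in the inverted cross and 16.0, 18.4 and 15.2 in Paf1L. Control libraries gave 23.9, 27.0 and 33.1 in w1118 iso and 18.1, 16.6 and 18.3 in w1118. The control stocks did not overlap each other, and only the Leo1L group lay wholly outside the range of the 6 controls. Ddc rose by 0.39 log2 in Cdc73L and by 0.41 in Ctr9L, with limma's Benjamini-Hochberg adjusted p of 0.00833 and 0.00564. It fell by 0.43 in Leo1L and by 0.41 in Paf1L, with limma's adjusted p of 0.00241 and 0.00401. The inverted cross differed by -0.21 (limma, adjusted p = 0.101). The standard error was 0.10 throughout.

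These Ddc calls depended on which stock served as the control. Against w1118 alone, Ddc was 0.70 higher in Cdc73L and 0.72 higher in Ctr9L on the log2 scale, and the 3 other groups differed by -0.11 in Leo1L, 0.10 in the inverted cross and -0.09 in Paf1L (limma, Benjamini-Hochberg adjusted p of 0.414, 0.457 and 0.52). Against w1118 iso alone the pattern turned over. Ddc then differed by 0.07 in Cdc73L and 0.09 in Ctr9L (limma, adjusted p of 0.707 and 0.649), and fell by 0.74 in Leo1L, 0.53 in the inverted cross and 0.72 in Paf1L (limma, adjusted p of 0.000126, 0.00278 and 0.000208). With both stocks treated as 1 control group, an alternative chosen after seeing the data, the 6 controls spread more widely and the call was kept in Leo1L only (limma, adjusted p = 0.0496). The stocks themselves differed by more than any mutant differed from both stocks together: Ddc was 0.63 higher in w1118 iso than in w1118 (standard error 0.11, limma, adjusted p = 0.00168). The span of Ddc overlaps that of CG10561, and how reads from the shared stretch were assigned is not given in the sources used here.

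**Figure D2:**
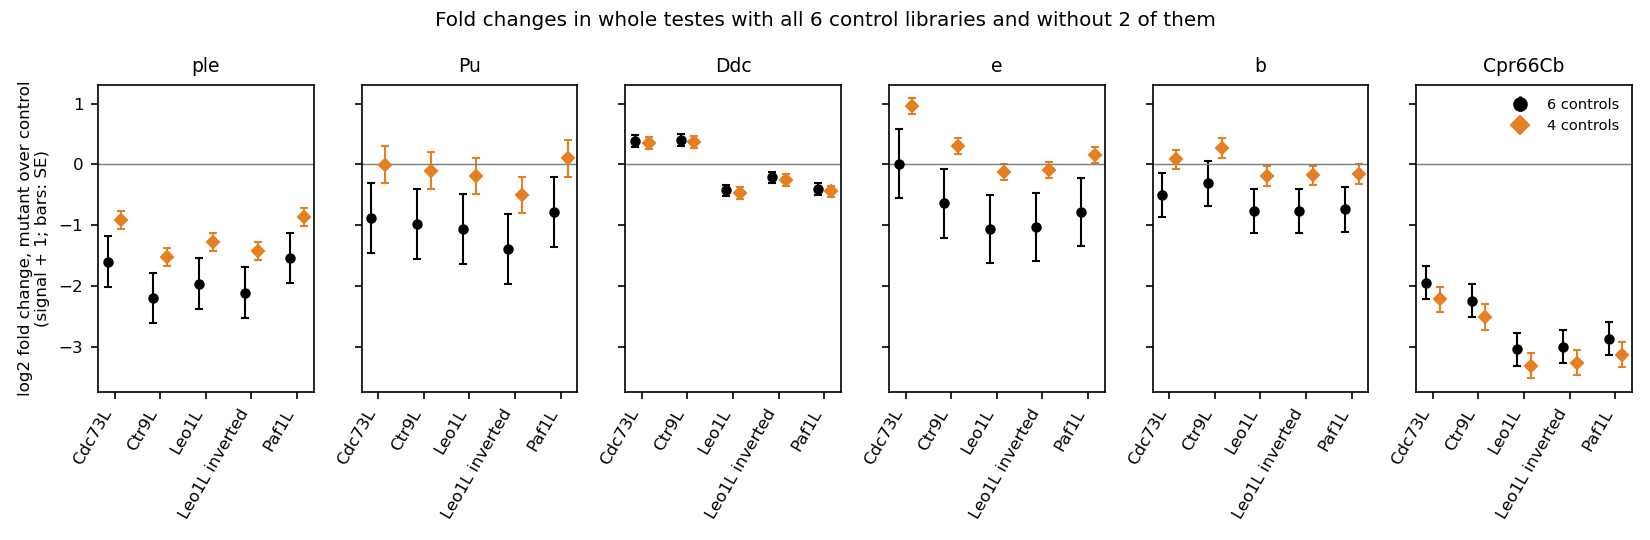
Log2 difference of each mutant group from controls for the 6 members with a mean signal of at least 1, computed with all 6 control libraries and with the 4 left after taking out the 2 with the highest ple; bars are standard errors, mutant over control. Most differences of ple, Pu, e and b move toward 0 with 4 controls, but that of e in Cdc73L moves away, to 0.95, those of Cpr66Cb move slightly away too, and those of Ddc stay close to where they were.

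e (FBgn0000527, chromosome 3R, 21229839 to 21237177, minus strand), which joins dopamine to beta-alanine, gave 27.0, 26.1 and 20.3 in Cdc73L and 15.6, 14.7 and 14.7 in Ctr9L. Leo1L gave 11.1, 11.1 and 10.6, the inverted cross 11.0, 14.1 and 9.11, and Paf1L 14.8, 12.2 and 13.8. Controls gave 85.8, 15.3 and 17.7 in w1118 iso and 9.59, 7.97 and 96.9 in w1118. All mutant groups thus lay inside the control range, between the 4 low and the 2 high control libraries or among the low ones. The log2 differences ran from -1.07 in Leo1L to 0.01 in Cdc73L (standard error 0.56), with limma's Benjamini-Hochberg adjusted p between 0.162 and 0.988. Without the 2 high libraries the Cdc73L group was 0.95 higher (limma, adjusted p = 0.000128) with its 3 values above the other 4 controls, while Ctr9L differed by 0.30, Leo1L by -0.13, the inverted cross by -0.09 and Paf1L by 0.16, none of them called. Against w1118 iso alone e was called lower in Leo1L and in the inverted cross, at -1.32 and -1.28 (limma, adjusted p of 0.021 and 0.026).

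b (FBgn0000153, chromosome 2L, 13821248 to 13823979, plus strand), which supplies beta-alanine from aspartate, overlapped between mutants and controls. It gave 3.14, 2.47 and 2.42 in Cdc73L, 3.19, 3.42 and 2.91 in Ctr9L and 1.78, 1.98 and 2.39 in Leo1L. The inverted cross gave 2.00, 1.85 and 2.30 and Paf1L 2.59, 2.23 and 1.57. Controls gave 12.6, 2.26 and 2.43 in w1118 iso and 2.15, 3.06 and 8.92 in w1118, so the mutants overlapped the 4 lower controls. The log2 differences lay between -0.77 and -0.31 (standard error 0.37), with limma's Benjamini-Hochberg adjusted p between 0.12 and 0.587, and without the 2 high libraries between -0.19 and 0.27.

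Over Pu, e and b in the 5 mutants, 15 tests gave 0 calls with limma, and 2 had an unadjusted p under 0.05 (Pu in the inverted cross and b in Leo1L). Of the 4 tested genes Ddc, Pu, e and b, 1 was called higher in Cdc73L and in Ctr9L, where 10.4% and 12.0% of all tested genes were called higher, and 1 was called lower in Leo1L and in Paf1L. In the inverted cross 0 of the 4 were called in either direction with limma, and Ddc and Pu had an unadjusted p under 0.05. Higher calls over all genes made up 15.4% in Leo1L, 15.8% in the inverted cross and 13.8% in Paf1L. The other route to beta-alanine, from uracil through su(r), pyd3 and CRMP, gave 0 calls of 3 tested genes in every bulk mutant against all 6 controls. Without the 2 control libraries with high ple, pyd3 was called lower in Leo1L and Paf1L (limma, adjusted p of 0.0372 and 0.019).

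y (FBgn0004034, chromosome X, 356509 to 361245, plus strand) had a mean under 1 and was not among the genes tested. Its signals were 0.344, 0.176 and 0.107 in Cdc73L, 0.628, 0.776 and 0.544 in Ctr9L and 1.62, 0.923 and 1.53 in Leo1L. The inverted cross gave 0.447, 0.288 and 0.355 and Paf1L 0.651, 0.835 and 0.658. Controls gave 0.398, 0.0968 and 0.105 in w1118 iso and 0.324, 0.182 and 0 in w1118, at or near the value of 3 reads. The Ctr9L, Leo1L and Paf1L values lay above every control, and how many other genes do so is not given here. When the filter on low values was dropped, the log2 differences were 0.48 in Ctr9L, 0.99 in Leo1L and 0.54 in Paf1L (limma, Benjamini-Hochberg adjusted p of 0.00782, 7.1e-06 and 0.00245), against 0.03 in Cdc73L and 0.21 in the inverted cross (limma, adjusted p of 0.886 and 0.207). The y alleles of the stocks and mutants are not given in the sources used here, and y overlaps CG32816.

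Cpr66Cb (FBgn0035875, chromosome 3L, 8336672 to 8338595, plus strand) was nearly lost from Leo1L and Paf1L testes. It gave 2.06, 1.32 and 1.26 in Cdc73L and 0.999, 0.777 and 1.44 in Ctr9L. Leo1L gave 0.383, 0.0853 and 0.0904, the inverted cross 0.221, 0.477 and 0, and Paf1L 0.226, 0.167 and 0.659. Controls gave 2.84, 9.15 and 10.1 in w1118 iso and 11.2, 12.6 and 10.7 in w1118. All mutant values lay below the lowest control, 2.84. That lowest control was replicate 1 of w1118 iso, one of the libraries with high ple, while replicate 3 of w1118, the other such library, had 10.7. The log2 differences were -1.95 in Cdc73L, -2.24 in Ctr9L, -3.04 in Leo1L, -3.00 in the inverted cross and -2.86 in Paf1L, each with a standard error of 0.27. Without the 2 libraries they were -2.21, -2.51, -3.31, -3.27 and -3.13. Several mutant values lie at or under the value of 3 reads, where the fold on this scale understates the change.

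Other cuticle genes moved in both directions. Of 120 other cuticle protein genes in the table, 21 had enough signal to be tested. Called lower and higher were 2 and 4 of these in Cdc73L, 4 and 3 in Ctr9L, 6 and 8 in Leo1L, 6 and 7 in the inverted cross, and 4 and 7 in Paf1L. Of the higher calls, 2 in each of Leo1L, the inverted cross and Paf1L were of genes whose control mean was under 1 and that entered the test only through mutants. Over all tested genes, 12.6% were called lower and 10.4% higher in Cdc73L, and 10.8% and 12.0% in Ctr9L. The shares were 15.1% and 15.4% in Leo1L, 15.9% and 15.8% in the inverted cross, and 15.0% and 13.8% in Paf1L. Twdlalpha, of the tweedle family of cuticle proteins, rose in all 5 mutants by 0.66, 0.71, 0.90, 0.90 and 0.95 log2 (limma, Benjamini-Hochberg adjusted p from 1.28e-07 to 4.86e-05). TwdlP, of the same family, fell in all 5 (limma, adjusted p from 3.83e-06 to 0.0266), though in Cdc73L not without the 2 control libraries with high ple. TwdlT was called higher in all but Ctr9L, in Leo1L only with those 2 libraries, and Cpr51A, like Cpr66Cb a gene of the Cpr family, fell in all but Cdc73L (limma, adjusted p from 0.000173 to 0.00584).

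Of 7 genes that make or shape chitin, 6 were tested. Called lower and higher were 1 and 2 in Cdc73L, 0 and 1 in Ctr9L, 0 and 1 in Leo1L, 3 and 1 in the inverted cross, and 0 and 1 in Paf1L. The shares over all tested genes are those given for the cuticle genes. obst-A, a chitin-binding protein of the cuticle matrix, rose in all 5 mutants by 1.64, 1.10, 0.90, 0.70 and 0.93 log2 (limma, adjusted p from 0.000273 to 0.0438), with means of 1.24 to 3.48 in mutants against 0.345 in controls. Its controls lay under the filter of 1, so it entered the test only through the mutants; with no filter the calls were kept (limma, adjusted p from 0.000209 to 0.0376). Its call in the inverted cross was lost in 18 of 35 alternatives. verm, a chitin deacetylase, fell by 0.78 in Cdc73L and by 0.72 in the inverted cross (limma, adjusted p of 0.00284 and 0.00266). serp, the other deacetylase, and knk, which protects new chitin, were called in the inverted cross alone (limma, adjusted p of 0.0421 and 0.0366) and lost that call in 15 and 13 of 35 alternatives.

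The remaining pigment lists gave scattered calls. Of 4 genes that convert phenylalanine or dopamine, Hn, phenylalanine hydroxylase, fell in Cdc73L by 1.30 log2 (limma, adjusted p = 0.0255) and was the only call in any bulk mutant; t, which undoes the step of e, as well as amd and speck, the dopamine N-acetyltransferase, were not called. Of 4 oxidases that act on catechols, none was called in Cdc73L, Ctr9L or Leo1L. PPO1, a prophenoloxidase of crystal cells of the blood, rose by 1.73 in the inverted cross and by 1.70 in Paf1L (limma, adjusted p of 0.0223 and 0.026), and PPO2, also of crystal cells, by 1.53 in the inverted cross (limma, adjusted p = 0.0393). stw, laccase 2, fell by 0.52 in the inverted cross (limma, adjusted p = 0.0395) and PPO3, of lamellocytes, by 0.64 in Paf1L (limma, adjusted p = 0.0314). The summed signal of 5 blood cell markers was 91.1 to 162 in the mutant libraries against 57.8 to 133 in controls, and its part in the oxidase values was not tested. Without the 2 control libraries with high ple, the calls of Hn, PPO1, PPO2, PPO3 and stw were all lost (limma, adjusted p from 0.0556 to 0.13). The differences themselves kept their direction, at -1.29 for Hn, 1.25 and 1.23 for PPO1, 1.15 for PPO2, -0.52 for PPO3 and -0.42 for stw, and speck was then called lower in Ctr9L (limma, adjusted p = 0.00916).

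Of 13 other genes of the yellow family, 7 were tested, and the calls were 1 lower and 1 higher in Cdc73L, 1 higher in Ctr9L, in the inverted cross and in Paf1L, and none in Leo1L. yellow-h was higher in Cdc73L and Ctr9L (log2 0.52 and 0.56), yellow-c in the inverted cross and Paf1L (0.66 and 0.72), and yellow-e2 fell by 0.75 in Cdc73L (limma, adjusted p = 0.000443). yellow-d was not called. Catsup, which restrains tyrosine hydroxylase, was the 1 tested gene of 3 in dopamine handling and fell in Cdc73L by 0.22 (limma, adjusted p = 0.0285); the transporters DAT and Vmat had means under 1. Of 10 genes of pterin and ommochrome pigments, 7 were tested. w, an ABC transporter of pigment precursors, rose in Ctr9L, Leo1L, the inverted cross and Paf1L by 0.38 to 0.61 log2 (limma, adjusted p from 0.00201 to 0.0498), beside control stocks named for a w allele. cd fell in Ctr9L, bw in Paf1L, and kar rose in Leo1L. Without the 2 libraries the calls of yellow-h, yellow-c, Catsup in Cdc73L, kar, and w in Ctr9L and Leo1L were lost (limma, adjusted p from 0.0689 to 0.13). The same fit gained calls of yellow-d lower in Ctr9L and Leo1L, and of yellow-e2 and Catsup higher in Leo1L (limma, adjusted p from 0.0226 to 0.0455).

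Together, the 7 lists of pigment genes held 41 genes, of which 30 were tested. Called lower and higher were 4 and 1 in Cdc73L, 2 and 2 in Ctr9L, 2 and 2 in Leo1L, 2 and 4 in the inverted cross, and 3 and 3 in Paf1L. Over all tested genes, 10.8% to 15.9% were called lower and 10.4% to 15.8% higher in these mutants. Without the 2 control libraries with high ple the counts of the 30 genes were 2 and 0, 4 and 0, 4 and 2, 1 and 1, and 3 and 1 in the same order of mutants. That fit called 1035 to 1733 of all 10925 genes lower and 1044 to 1779 higher. The median log2 difference of the 30 lay between -0.07 and 0.04 in the 5 mutants, beside medians of all tested genes between 0.00 and 0.03.

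**Figure D3:**
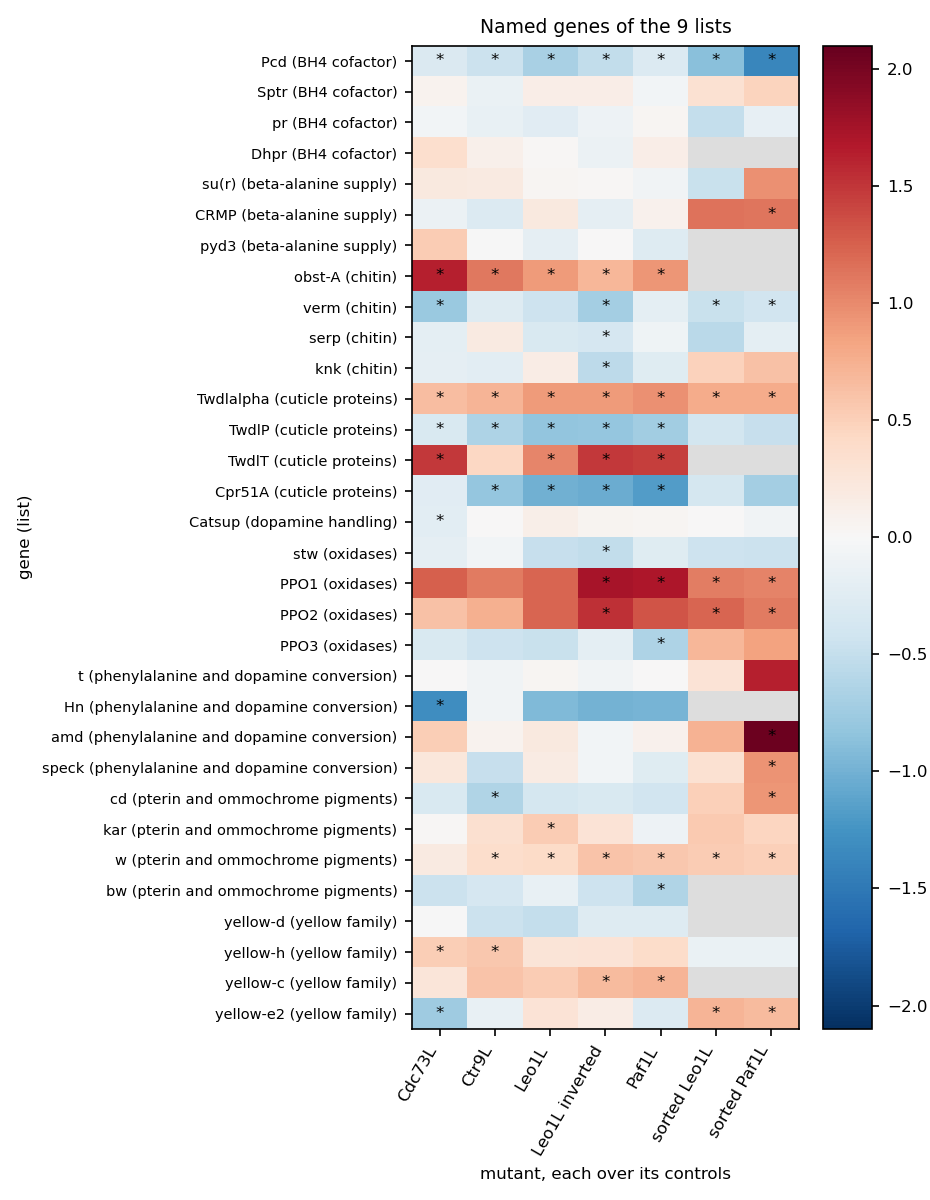
Log2 difference from controls for the named genes of the 9 lists (rows) in the 5 bulk mutants and the 2 sorted mutants (columns); an asterisk marks an adjusted p under 0.05 and grey a gene not tested. The row of Pcd is lower in all 7 columns and that of Twdlalpha higher in all 7, while most other rows carry few marks.

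The 2 control libraries set apart by ple shared a pattern across the pathway. The signal of ple was 3.67 times the highest of the other 4 controls in replicate 3 of w1118 and 3.17 times in replicate 1 of w1118 iso. The ratios were 4.17 and 3.77 for Pu, 5.47 and 4.84 for e, and 2.92 and 4.10 for b. Ddc did not take part, with ratios of 0.551 and 0.721. Of the 10925 tested genes, 19 (0.174%) were at least 2-fold above all other 4 controls in both libraries, among them these 4 members, and 11 (0.101%) were at least 2-fold below. The libraries belong to different stocks and carry different replicate numbers. Their summed accessory gland markers were 2118 and 1002, against 470 to 1834 in the other 4 controls, and their ejaculatory duct and bulb markers 124 and 314, against 75.1 to 288. Each library was thus the highest control in one of the marker sets and inside the range of the other 4 in the other, and the part of these cells in the pattern was not tested.

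Across the 21 bulk libraries, log2 signals of ple correlated with those of Pu (Pearson r = 0.78, Spearman rho = 0.38), e (0.76 and 0.43) and b (0.79 and 0.30), while the values for Ddc were -0.0039 and 0.0065. Without the 2 libraries farthest in ple, which are the same 2 controls, r was 0.10 for Pu, 0.051 for e, 0.017 for b and 0.063 for Ddc, so the relations rest on them. The correlation of ple with Cpr66Cb was 0.69 with all libraries and 0.82 without them. The libraries share their groups, 15 mutant and 6 control, which chose both genes, and these values only describe them.

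**Figure D4:**
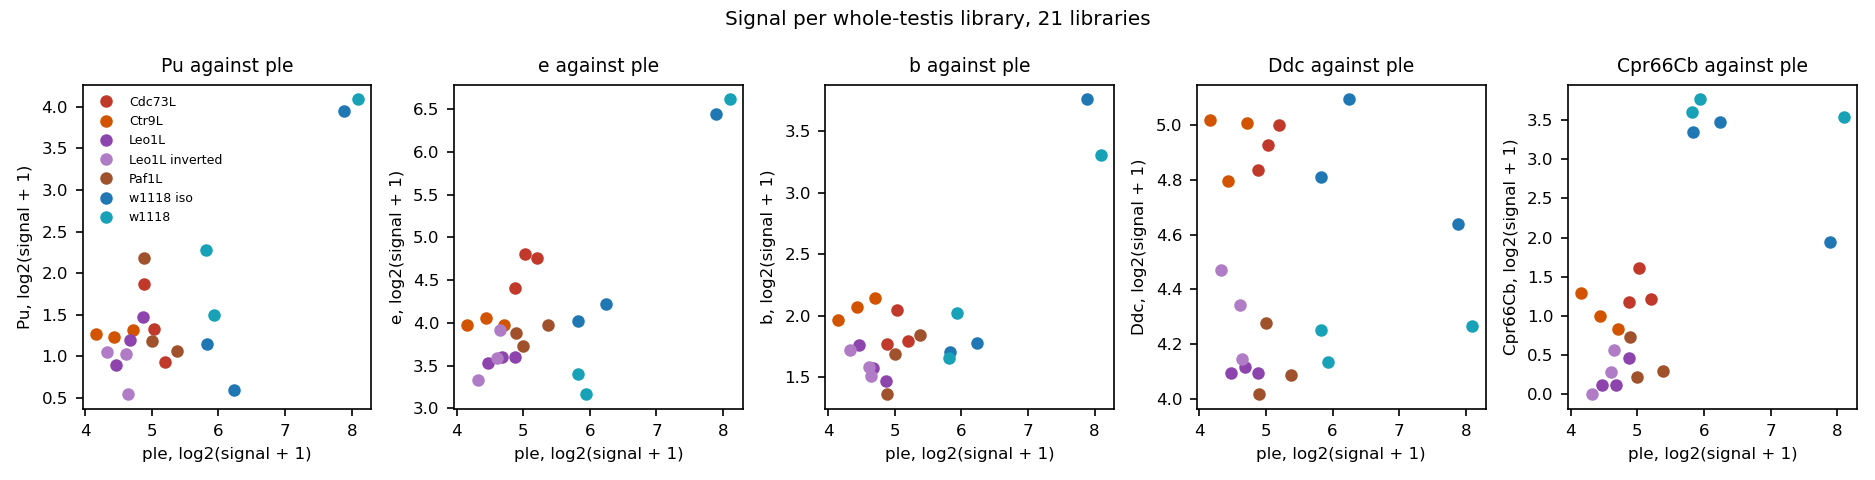
Signal of Pu, e, b, Ddc and Cpr66Cb against that of ple in the 21 bulk libraries, both axes on the log2(signal + 1) scale, with mutant and control libraries marked. In the panels of Pu, e and b, 2 control libraries lie apart at the upper right and the other 19 show no slope; in that of Cpr66Cb the mutants and controls form separate groups.

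By stock, 1 of the 6 tested members, Ddc, differed between w1118 iso and w1118, where 8.69% of all genes were called. ple differed by 0.03, Pu by -0.72, e by 0.50, b by 0.08 and Cpr66Cb by -0.72 (limma, Benjamini-Hochberg adjusted p from 0.16 to 0.981), although every w1118 iso value of Cpr66Cb lay below every w1118 value. Without the 2 libraries e was 0.84 higher in w1118 iso (limma, adjusted p = 0.0056).

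Among the mutants, contrasts without control libraries could be computed for 6 members, of which Cpr66Cb had entered the test only through its controls. Between the inverted cross and Leo1L, 0 of the 6 tested members were called and 0 had an unadjusted p under 0.05 (limma). Their log2 differences lay between -0.32 and 0.21, where 0.0366% of all genes were called. In these 2 groups most Cpr66Cb values lay at or under that of 3 reads, so a difference in it was not detectable at this depth. y, tested only without the filter, was 0.78 lower in the inverted cross than in Leo1L (limma, adjusted p = 0.0486). Over the 5 mutant groups, an F test called 8.13% of all genes and 1 of the 6 members. Ddc varied among mutants (limma, Benjamini-Hochberg adjusted p = 2.62e-05), with means of 29.3 ± 1.72 in Cdc73L and 29.7 ± 2.59 in Ctr9L beside 16.2 ± 0.155 in Leo1L, 19.0 ± 2.24 in the inverted cross and 16.5 ± 1.66 in Paf1L (SD, n = 3). Cpr66Cb, at 0.777 to 2.06 in Cdc73L and Ctr9L and 0 to 0.659 in the other 3 groups, had an adjusted p of 0.0646 in the same F test with limma, and ple one of 0.726.

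In sorted spermatocytes no fall of ple was seen in the mutants, at control signals that leave little room for one. It gave 2.68, 1.92 and 2.95 in sorted Leo1L and 1.71, 5.64 and 2.85 in sorted Paf1L, against 2.39, 0.933 and 2.75 in sorted controls. The log2 differences were 0.26 and 0.50 (standard error 0.37, limma, Benjamini-Hochberg adjusted p of 0.707 and 0.356), and the groups overlapped. On the log2(signal + 1) scale, falls of ple as deep as those in bulk against all controls could not have shown from these control signals. Whether the sorted differences differ from the bulk change was not tested. e gave 0.567, 1.82 and 2.22 in Leo1L and 1.90, 3.46 and 1.53 in Paf1L, against 1.01, 2.31 and 2.45 in controls, with differences of -0.23 and 0.17 (limma, adjusted p of 0.748 and 0.78). Cpr66Cb was at or near 0 in every group, at 0, 0 and 0 in Leo1L and 0.190, 0 and 0 in Paf1L, against 0, 0 and 0.0994 in controls, all at or under the value of 3 reads or close to it. Pu lay between 0.150 and 0.771 in all 9 columns and was not tested. A fall of Pu or Cpr66Cb was therefore not detectable at this depth.

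Signals of b and Ddc were higher in every sorted mutant column than in every sorted control column. How many of all tested genes separate in this way is not given here. b gave 1.66, 1.25 and 1.95 in Leo1L and 2.07, 2.34 and 2.21 in Paf1L, against 0.371, 0 and 0.557 in controls, with no overlap. The log2 differences were 1.02 and 1.32 (standard error 0.31, limma, Benjamini-Hochberg adjusted p of 0.0401 and 0.00752). The control mean of b, 0.309, lay under the filter of 1, so b entered the test only through the mutant columns, where its means were 1.62 and 2.21. With no filter, over all genes of the table, limma's adjusted p were 0.0191 and 0.00373. The Leo1L call was lost in 9 of 16 alternatives, 7 of which left out 1 column, and the Paf1L call under quantile normalization alone (limma, adjusted p = 0.057). Ddc gave 14.2, 14.4 and 15.6 in Leo1L and 13.8, 11.5 and 18.7 in Paf1L, against 8.86, 7.49 and 11.3 in controls. The log2 differences were 0.64 and 0.60, with limma's adjusted p of 0.0557 and 0.0514, just short of the threshold. With the replicate number as a block, a pairing that was neither assumed nor excluded, limma's adjusted p were 0.0296 and 0.028. Without the control column of replicate 3 they were 0.0444 and 0.0383. That column had the highest accessory gland markers of the 9 (78.7, against 10.7 to 23.8 in the others). With no filter on low values limma's adjusted p for Ddc rose to 0.0950 and 0.0830, so its calls depend on the processing.

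Of the 4 tested members, 1 was called higher in each sorted mutant and 0 lower; that 1 is b, so nothing is read from this count. Over the 9495 genes tested, 9.53% were called higher and 6.95% lower in sorted Leo1L, and 13.0% and 12.3% in sorted Paf1L. Between sorted Paf1L and sorted Leo1L 0 of the 4 were called and 0 had an unadjusted p under 0.05 (limma), with log2 differences between -0.04 and 0.40, where 0.442% of all genes were called. y gave 0.324, 0.0600 and 0.0492 in Leo1L and 1.48, 1.77 and 0.422 in Paf1L, and was listed at 0 in the 3 control columns. Without the filter on low values it was higher in Paf1L by 1.10 on the log2 scale (limma, adjusted p = 0.00962), and in Leo1L the difference was 0.19 (limma, adjusted p = 0.722).

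**Figure D5:**
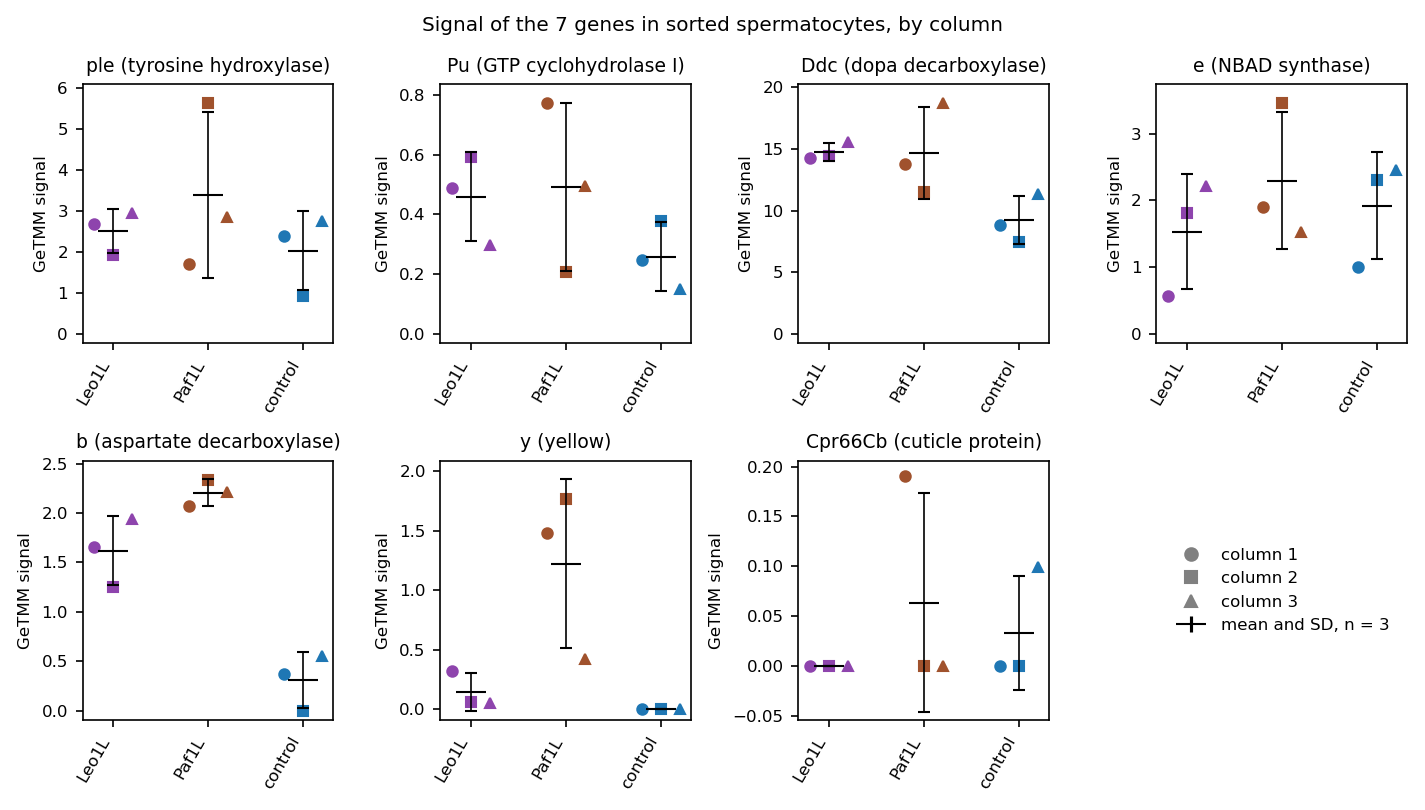
Normalized signal of the 7 members in the 9 columns of sorted spermatocytes, with the 2 mutants left of the control, on linear axes; points are columns, and black bars are the mean and SD (n = 3). Points of b and Ddc lie higher in both mutants than in the control, those of ple and e overlap, and those of Cpr66Cb lie at or near 0 throughout.

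Several genes of the wider lists were called in sorted cells. Of the 41 pigment genes of the 7 lists, 21 had enough signal to be tested there, with 1 lower and 4 higher in Leo1L, and 1 lower and 8 higher in Paf1L. Of these higher calls, PPO1 and PPO2 in both mutants and amd and CRMP in Paf1L were of genes with a control mean under 1, which entered the test only through the mutants. With no filter the calls of PPO1, PPO2 and amd were kept (limma, adjusted p from 0.000213 to 0.0197) and that of CRMP was lost (0.0618). The 1 lower gene was Pcd in both, at 16.1 ± 2.32 in Leo1L and 11.3 ± 2.63 in Paf1L against 30.3 ± 3.54 in controls (SD, n = 3), log2 changes of -0.87 and -1.37 (limma, adjusted p of 0.00599 and 0.000168). PPO1 rose by 1.08 and 1.04 and PPO2 by 1.22 and 1.09, w by 0.53 and 0.49 and yellow-e2 by 0.71 and 0.67 in Leo1L and Paf1L (limma, adjusted p from 0.00799 to 0.0331 over these 8 tests). In Paf1L amd, a relative of Ddc needed for cuticle, rose by 2.05 (limma, adjusted p = 0.000281), with 3.53 to 4.18 in Paf1L against 0 to 0.346 in controls. speck, CRMP and cd were also called higher there (0.94, 1.13 and 0.93), calls that were lost in 10, 11 and 6 of 16 alternatives. Of 18 cuticle genes tested, 1 was called lower and 4 higher in Leo1L and 2 and 4 in Paf1L, and Twdlalpha rose by 0.78 in both (limma, adjusted p of 1.08e-05 and 9.62e-06). Of 5 chitin genes, 1 was called lower in Leo1L and 1 in each direction in Paf1L, with verm lower in both.

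Markers of other cells moved in the same columns. The summed blood cell markers were 10.9 to 11.3 in sorted Leo1L and 9.31 to 18.1 in sorted Paf1L, against 2.40 to 6.36 in sorted controls, and of these 5 genes NimC1 was at 0 in every sorted Leo1L column. Fat body markers were 61.3 to 84.0 and 95.7 to 160, against 39.8 to 43.5, and accessory gland markers 11.7 to 15.7 and 10.7 to 12.0, against 22.6 to 78.7. Neuron markers were 38.2 to 42.9 and 33.0 to 36.5, against 51.6 to 69.1, and cyst and hub cell markers 52.2 to 61.5 and 59.8 to 80.0, against 88.1 to 95.6. The summed signal of 7 spermatocyte markers was 433 to 512 and 394 to 496, against 358 to 371. In bulk, muscle sheath markers were 237 to 664 in mutant libraries against 507 to 764 in controls, and accessory gland markers 24.7 to 3494 against 470 to 2118. The part of these cells in the values of the members was not tested.

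By pattern over the 21 bulk libraries, the genes most like ple were hid (Pearson r = 0.897), CG4563 (0.869), CG14721 (0.859), CG14744 (0.855) and CG6966 (0.851), with r between 0.739 and 0.823 when the 2 libraries farthest in ple were left out. hid encodes an inducer of cell death, and it lay between 13.9 and 20.0 in mutant libraries against 18.7 to 32.1 in controls. CG4563 lay between 4.84 and 8.60 in mutant libraries against 10.2 to 17.4 in controls. The genes most like Cpr66Cb were CG42391 (0.954), ana (0.953), GstO3 (0.940), CG7768 (0.939) and CG4815 (0.937). Without the 2 farthest libraries r was between 0.912 and 0.950. The difference between mutant and control libraries chose ple and Cpr66Cb. Any gene that separates these libraries therefore has a high r, also with 2 of them left out, and the values only describe the genes. ana, a glycoprotein first described from larval glia, lay between 31.5 and 55.0 in mutants against 62.5 to 163 in controls, and CG42391 between 6.03 and 10.6 against 15.2 to 19.3.

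Genes next to ple and Cpr66Cb on the chromosome were mostly not called. Around ple, SP1173 and CG8519 lie before it and dikar and velo after it, and only SP1173 was called, lower by 0.79 in the inverted cross (limma, adjusted p = 0.00884). Around Cpr66Cb, CG34461 and CG34462 had means under 1 and were not tested, Pex2 was not called, and Prim1 fell by 0.56 in Paf1L alone (limma, adjusted p = 0.0341).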

How the data were processed

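Members and lists were chosen with earlier results of these data known. Of 39 samples, 21 are bulk libraries and 18 sorted samples stand behind 9 columns. The authors normalized the deposited signal per gene under the name GeTMM and gave 13659 genes in each of 2 tables, 1 for bulk and 1 for sorted cells. STAR, Salmon, edgeR 3.34.0, DESeq2 and dm6 are named in the submitters' processing notes, without their roles; strand setting and counting are not given in the sources used here. The tables were normalized separately, so tests stayed within a table. Low values lay only partly at whole multiples of a read step (53.1% to 86.1% per bulk library and 41.4% to 84.6% per sorted column, within 0.1 of a step and up to 6 steps), so no count test was run and depths are approximate.

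Genes with a mean signal of at least 1 were fitted in limma 3.58.1 (R 4.3.3; trend, log2(signal + 1)) over all libraries of a table. Mutants were set against the mean of both stock means. A gene was called at a Benjamini-Hochberg adjusted p under 0.05 over all tested genes, which was tested on simulated data. No p is given for ple and Cpr66Cb in bulk mutants against controls. Genes named are the members, up to 4 per list (those called in most bulk mutants, then by size of change), the 5 most alike in pattern to ple and to Cpr66Cb, and the 2 nearest genes on each side of both. Positions came from Ensembl 115 for BDGP6.54, matched by symbol for 13330 genes (97.6%). Python 3.11.15, pandas 2.3.3 and matplotlib 3.10.9 were also used. Alternatives were the stocks alone or joined, the mean log2(signal + 1) of marker sets as covariates, filter, pseudocount, scaling, trend, replicate block and each replicate left out.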

Additional observations from a re-analysis of the deposited data

Results flagged for a closer look

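Cpr66Cb had a signal of 2.84 in replicate 1 of w1118 iso, the lowest of the 6 bulk controls, with a gap to the nearest that was 0.646 of the whole range (Dixon's critical value is 0.625). Chance gives such a mark in about 1 in 20 groups, and 7 groups of 6 were examined. Ddc differed among the 5 bulk mutant groups by an F test with limma (Benjamini-Hochberg adjusted p = 2.62e-05). Ddc averaged 16.2 in bulk Leo1L testes, below every control, and 14.8 in sorted Leo1L spermatocytes, above every sorted control. The directions are opposite, and the difference between the experiments was not tested. Against w1118 alone, the genotype named for the sorted control, the bulk difference was -0.11 (limma, adjusted p = 0.414), and the sorted difference of 0.64 missed the threshold (limma, adjusted p = 0.0557).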

How the results depend on the processing

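In what follows, pathway genes are Ddc, Pu, e, b and y, and list genes are those of the 9 lists; counts are of genes called. Of 3678 recomputed fold changes, 33 turned their sign, 456 lost a call (56 of them by the fold limit alone) and 20 gained one. The cause was not tested where none is given.

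Without the 2 control libraries with the highest ple, log2 differences turned to 0.082 for b in Cdc73L, 0.27 for b and 0.30 for e in Ctr9L, 0.10 for Pu and 0.16 for e in Paf1L, and -0.10 for b between the stocks. Pathway genes called higher became 2 in Cdc73L and 2 between the stocks, list genes called lower 3 in Cdc73L and 3 between the stocks, and list genes called higher 0 between the stocks. With w1118 alone, Ddc in the inverted cross turned to 0.10, pathway genes called lower became 1 in the inverted cross (Pu) and 0 in Paf1L, and list genes called lower 11 in Paf1L. With w1118 iso alone, e in Cdc73L turned to -0.24. Pathway genes called higher became 0 in Cdc73L and 0 in Ctr9L, those called lower 2 in Leo1L and 2 in the inverted cross, and list genes called lower 7 in the inverted cross. With both stocks as 1 control group, pathway genes called higher became 0 in Cdc73L and 0 in Ctr9L and those called lower 0 in Paf1L, list genes called higher 3 in Ctr9L and those called lower 4 in Paf1L.

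With the sum of accessory gland markers as a covariate, pathway genes called higher in Cdc73L became 0, and list genes in Cdc73L 3 lower and 3 higher. With ejaculatory duct and bulb markers, list genes lower in Cdc73L became 4. With muscle sheath markers, e in Cdc73L turned to -0.15 and ple between the stocks to -0.12. Pathway genes higher in Ctr9L became 0, list genes lower 4 in Cdc73L, 3 in Ctr9L and 5 in the inverted cross, and list genes higher 2 in the inverted cross, 4 in Paf1L and 0 between the stocks.

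A fold limit of 1 on the log2 scale, by its construction, left 0 pathway genes called in any bulk comparison (Cdc73L, Ctr9L, Leo1L, Paf1L and the stocks). List genes lower became 1 in Cdc73L, 1 in Ctr9L and 2 in each of Leo1L, the inverted cross, Paf1L and the stocks. List genes higher became 2 in Cdc73L, 1 in Ctr9L, 2 in Leo1L, 4 in the inverted cross and 3 in Paf1L. Sorted Leo1L kept 0 lower and 4 higher, and sorted Paf1L 1 lower and 8 higher.

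Without the filter on low values, y entered the test: pathway genes higher became 2 in Ctr9L, 1 in Leo1L and 1 in Paf1L, members lower 1 in the inverted cross against Leo1L, and members higher 2 in sorted Paf1L. List genes higher became 18 in Paf1L, 0 between the stocks and 1 in sorted Paf1L against sorted Leo1L. Without the mean-variance trend, list genes higher became 0 between the stocks and 1 in sorted Paf1L against sorted Leo1L. A pseudocount of 0.1 gave 2 members higher in sorted Paf1L. A pseudocount of 5 turned e in Cdc73L to -0.058, and gave 0 list genes higher between the stocks, 0 members higher in sorted Leo1L and 1 list gene higher in sorted Paf1L against sorted Leo1L. Quantile normalization turned e in sorted Paf1L to -0.25, and gave list genes lower of 13 in Leo1L and 7 in the inverted cross, 0 members higher in sorted Leo1L and in sorted Paf1L, and 7 list genes higher in sorted Paf1L. Rescaling to 1 total turned ple between the stocks to -0.002, and gave 4 list genes lower in Cdc73L, 0 higher between the stocks and 2 members higher in sorted Paf1L.

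Same-numbered samples did not deviate together in every pair, and the numbers were not taken to pair the samples. Correlations of deviations ran from -0.527 to 0.557 over 63 bulk pairs (22 above 0.1). Over 9 sorted pairs they ran from -0.111 to 0.276 (4 above 0.1), with a median of 0.0784, beside -0.0538 for columns with other numbers. These values cannot exclude a pairing. In the column names, library numbers run within a group in bulk, but through the groups within each replicate number in sorted cells. With the replicate block, list genes higher between the stocks became 0, and members higher 2 in sorted Leo1L and 2 in sorted Paf1L, where Ddc joined b.

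Leaving out each replicate in turn, pathway genes higher ranged from 0 to 1 in Cdc73L and 1 to 2 between the stocks, and those lower from 0 to 1 in the inverted cross. Members higher ranged from 0 to 2 in sorted Leo1L and 1 to 2 in sorted Paf1L. List genes higher ranged from 2 to 9 in Cdc73L, 2 to 7 in Ctr9L, 6 to 13 in Leo1L, 7 to 12 in the inverted cross and in Paf1L, 0 to 2 between the stocks, 4 to 9 in sorted Leo1L and 7 to 12 in sorted Paf1L. List genes lower ranged from 3 to 8 in Cdc73L, 7 to 12 in the inverted cross, 4 to 8 in Paf1L, 3 to 5 between the stocks and 1 to 3 in sorted Leo1L. Signs turned within -0.29 to 0.57 for e in Cdc73L and -0.49 to 0.025 for b in Ctr9L. Between the stocks they turned within -1.75 to 0.011 for Pu, -0.27 to 1.61 for e, -0.59 to 0.57 for b and -0.59 to 0.77 for ple. In sorted cells they turned within -0.48 to 0.084 for e and -0.034 to 0.44 for ple in Leo1L, and -0.080 to 0.34 for e in Paf1L. Single libraries decided some calls: Ddc in Cdc73L was lost without Cdc73L replicate 2, Ddc in the inverted cross was gained without w1118 iso replicate 1, and e between the stocks without w1118 replicate 3. Depth limits y, Pu and Cpr66Cb, whose values reach that of 3 reads.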

Other observations

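The 19 genes at least 2-fold higher in replicate 3 of w1118 and replicate 1 of w1118 iso than in the other 4 controls were, besides ple, Pu, e and b, Achl, CG13606, CG14961, CG15021, CG31706, CG32170, CG34217, CG9686, Cht5, Fbp1, IM33, Lsp2, Obp99b, btl and slow. Cht5 encodes a chitinase, and Fbp1 and Lsp2 encode a receptor and a storage protein of the fat body. Fbp1 and Lsp2 reached 153 and 64.9 in mutant libraries. The summed fat body markers, Lsp2 among them, were 247 in replicate 3 of w1118 and 235 in replicate 1 of w1118 iso. In the other 4 controls they were 170 to 310. The 19 genes were chosen after their values were seen. The genes most like e across the 21 bulk libraries included b, CG14961, CG32170, CG9686 and CG13606, all from the same 19. For b, r was 0.862 and dropped to 0.284 without the 2 farthest libraries.

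Some cuticle genes outside the naming rule, also chosen after their values were seen, changed in bulk and in sorted cells. TwdlG, a tweedle gene whose control means (0.310 in bulk and 0.746 in sorted cells) lay under the filter of 1, was higher by 2.15 log2 in bulk Leo1L, 2.18 in the inverted cross and 1.85 in Paf1L, and in sorted cells by 1.93 in Leo1L and 1.63 in Paf1L. Cpr92F was higher in sorted cells by 1.53 in Leo1L and 1.31 in Paf1L (limma, Benjamini-Hochberg adjusted p of 0.000504 and 0.00113). kkv, the chitin synthase of cuticle, averaged 13.0 ± 1.04 in sorted Paf1L against 4.77 ± 0.581 in sorted controls (SD, n = 3), a log2 difference of 1.28 (limma, adjusted p = 0.000492).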
